A study of Mus musculus with 6 samples.

Results

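The renin-angiotensin system is represented here by 9 mouse genes, Ren1, Agt, Ace, Agtr1a, Agtr1b, Enpep, Mme, Atp6ap2 and Mas1. They were chosen by symbol, each symbol led to 1 Ensembl row of the deposited count table, and they are 9 of its 55401 rows. Poly(A) RNA of whole mouse kidneys was sequenced in 6 libraries, 3 labelled control and 3 labelled as diabetic kidney disease (DKD). The labels used here give no strain, age or way of inducing diabetes for either group, and do not say whether each library is a separate animal, so the p-values measure the spread between libraries, which may be technical. Of the 9 genes 8 passed the filter on low counts and were tested. Agtr1b did not.

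Renin, a protease stored and released by the juxtaglomerular cells of the afferent arteriole, cleaves angiotensinogen to angiotensin I, and angiotensin-converting enzyme trims that peptide to angiotensin II. Angiotensin II acts mainly through the AT1 receptor to constrict vessels and retain sodium, while aminopeptidase A and neprilysin, both abundant on the brush border of the proximal tubule, cut angiotensins into other fragments, one of which signals through the Mas receptor. Blocking this cascade is a standard treatment of diabetic kidney disease, and the kidney holds its own copy of most of its components beside those that arrive in blood.

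Of the 8 tested genes, angiotensinogen (Agt) alone was higher in every DKD library than in every control library, at 91.6 ± 17.4 against 58.0 ± 13.0 CPM (read counts relative to the effective library size, by TMM; SD, n = 3). Renin (Ren1), Ace and neprilysin (Mme) had lower means in DKD with overlapping groups, and the receptors, aminopeptidase A (Enpep) and the prorenin receptor (Atp6ap2) had log2 differences no farther from 0 than 0.20. In the edgeR fit (quasi-likelihood test) 0 of 8 members passed an adjusted p of 0.05, beside 0 of all 19197 genes tested (0%). At an unadjusted p under 0.05 there was 1 member, Agt, where 19.2% of all tested genes were below that p, 12.2% with a higher and 7.05% with a lower level in DKD. DESeq2 called 1 member, Agt, where it called 9.11% of all genes (6.22% higher and 2.89% lower). Limma-voom with sample quality weights called 3, with Agt higher and Ace and Mme lower, where it called 17.7% (9.94% higher and 7.75% lower).

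The libraries held 64816622 to 77417638 counts. DKD replicate 1 stood apart. It correlated with its own group at a median of 0.943 and with the controls at 0.960, and all 36 hepatocyte markers were highest in it, with a summed level of 6357 CPM against 331.5 to 583.8 CPM in the other 5. Each tested member is therefore also given without that library. Markers of the proximal tubule were present in every library, at 24490 to 58630 CPM summed over 20 genes, and every library held Y-linked transcripts (Ddx3y at 46.0 to 58.5 CPM). Less RNA of a gene per cell and fewer cells of the type that makes it cannot be told apart in whole kidneys.

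**Figure D1:**
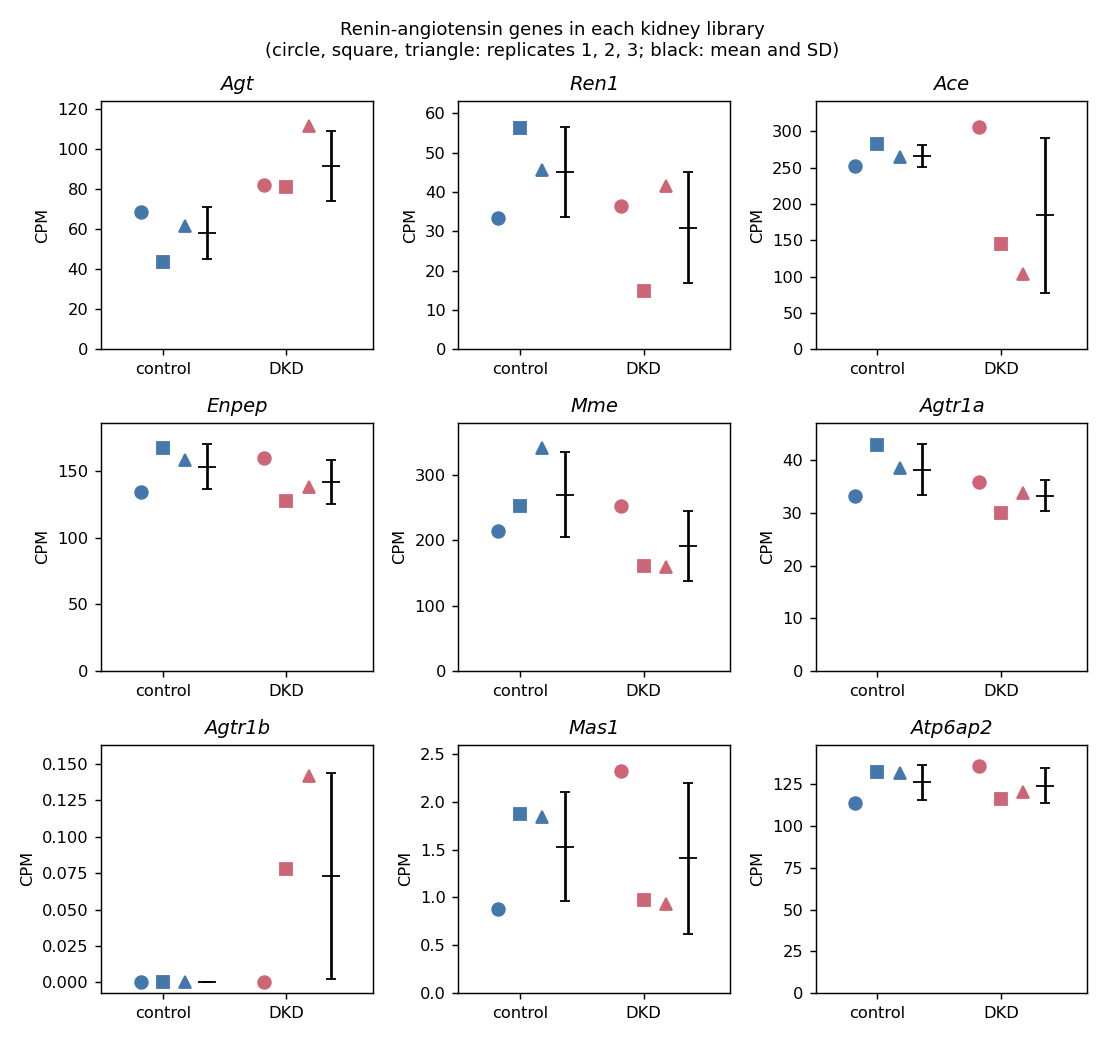
CPM of each member (vertical axes, linear) in the 3 control and 3 DKD libraries, with black marks for the mean and SD of a group. The groups are apart for Agt alone among the tested genes, and DKD replicate 1 (circle) is above all 3 controls for Ace, Mas1 and Atp6ap2 as well as for Agt.

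The sequences before the transcription start are shown for 3 members the results turn on: Agt, the member whose groups did not overlap, Ren1, the one with the lowest single value relative to its controls, and Ace, whose row adds up transcripts from 2 annotated starts. Each window is the 250 bases before a RefSeq start on the GRCm38.p6 build, read along the gene's strand, chr1:133350424-133350673, + strand for Ren1, chr8:124569707-124569956, - strand for Agt, and chr11:105967698-105967947, + strand and chr11:105974939-105975188, + strand for Ace. They serve as sequence only, since the counts were made on another build. Capitals mark the letters TATAAA on either strand, the core of the TATA box that sets the start of many strongly regulated genes.
Ren1: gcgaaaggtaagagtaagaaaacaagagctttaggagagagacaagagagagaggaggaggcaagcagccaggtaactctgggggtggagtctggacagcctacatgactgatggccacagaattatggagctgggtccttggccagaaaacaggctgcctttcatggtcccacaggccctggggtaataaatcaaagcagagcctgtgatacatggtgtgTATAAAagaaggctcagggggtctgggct
Agt: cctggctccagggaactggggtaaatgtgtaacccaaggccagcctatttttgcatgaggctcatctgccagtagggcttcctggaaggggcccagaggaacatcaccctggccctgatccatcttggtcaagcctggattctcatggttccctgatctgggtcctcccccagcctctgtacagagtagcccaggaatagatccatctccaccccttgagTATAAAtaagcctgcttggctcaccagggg
Ace upstream start: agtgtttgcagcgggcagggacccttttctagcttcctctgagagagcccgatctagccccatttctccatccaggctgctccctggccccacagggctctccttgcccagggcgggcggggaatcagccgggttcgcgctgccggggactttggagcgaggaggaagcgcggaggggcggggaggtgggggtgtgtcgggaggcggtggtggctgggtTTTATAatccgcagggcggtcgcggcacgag
Ace internal start: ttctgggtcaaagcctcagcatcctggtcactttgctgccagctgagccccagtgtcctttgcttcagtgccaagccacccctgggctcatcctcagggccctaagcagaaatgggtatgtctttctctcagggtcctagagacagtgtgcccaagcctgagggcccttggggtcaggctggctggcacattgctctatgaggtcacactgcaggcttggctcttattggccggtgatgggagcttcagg

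The letters lie 29 bases before the start in Ren1 and 30 bases before it in Agt, on the strand of the gene. In the upstream window of Ace they lie 31 bases before the start and read on the opposite strand, and the internal window of Ace holds none. RefSeq windows were found for 8 of the 9 members, 11 in all, and 5 of the 11 hold the letters, as do 12.4% of 32851 windows of the same length over all genes. The internal Ace start is known for the short enzyme of the testis. A gene-level count cannot say which of the starts was used.

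Agt encodes angiotensinogen, the only precursor of the angiotensins, made mainly by the liver and also by the proximal tubule and fat. The control libraries 1 to 3 held 68.6, 43.5 and 61.8 CPM, and the DKD libraries 1 to 3 held 82.0, 81.1 and 111.6 CPM. Every DKD library was above the highest control, as was so for 13.8% of all tested genes. The log2 difference was 0.66 ± 0.20 (SE; 95% interval 0.19 to 1.13), 1.58-fold, with an adjusted p of 0.164 in edgeR. An exact two-sided permutation test gave p = 0.1, the smallest that 3 against 3 libraries allow. Every gene without overlap gets this value, so it adds nothing to the separation.

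The levels of hepatocyte markers, including Alb (albumin), bear on the value of DKD replicate 1. Alb stood at 2321 CPM there, and at 9.47 and 7.20 CPM in DKD replicates 2 and 3, below the controls at 12.2 to 14.7 CPM. Agt in DKD replicate 1 was 0.53 above the control mean on the log2 scale, while the 27 tested hepatocyte markers averaged 5.43 above it. In DKD replicates 2 and 3 that average was 0.57 and 0.63, although the summed level of all 36 was below that of the controls. Single tested markers went both ways in those libraries. Fgg was at 33.2 and 37.5 CPM there against 5.62 to 8.13 CPM in the controls. Fga was at 39.0 and 50.8 CPM against 19.9 to 26.9 CPM. Serpina1a, like Alb, was below the controls, at 92.3 and 88.2 CPM against 172 to 258 CPM. The average leaves out the markers that were not tested. Of these, Ahsg, Serpina3k, Mup3, Mup20, Tat and Cyp7a1 had counts in DKD replicate 1 alone. Cps1 and Cyp2c29 had at most 8 counts in DKD replicates 2 and 3. Agt was 0.51 and 0.97 above the control mean in DKD replicates 2 and 3. Without DKD replicate 1 the log2 difference of Agt was 0.72 ± 0.21 (adjusted p = 0.0628 in edgeR), as large as with it, and the groups were again apart, as they were in that direction for 28.4% of all genes tested on those 5 libraries. DESeq2 and weighted limma-voom, run on those 5 libraries after the data were seen, gave adjusted p-values of 0.0127 and 0.0221. These fits called 23.3% (13.2% higher and 10.1% lower) and 24% (14.7% higher and 9.39% lower) of all genes.

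Fat markers also differed between libraries. Adipoq (adiponectin) and Plin1 (perilipin), which mark fat cells, had no count in the controls or in DKD replicate 1. Adipoq was at 0.337 and 2.03 CPM in DKD replicates 2 and 3, and Plin1 at 0.740 and 2.76 CPM. Ucp1, which marks brown fat, was at 0.571 and 9.57 CPM in those libraries and at 0 in the other 4. DKD replicate 3, with the most of these transcripts, also held the most Agt. Over the list, 3 of 9 adipocyte markers were tested and had higher fitted levels in DKD. Their sum, 1735 to 2581 CPM in controls and 2526 to 2817 CPM in DKD, is mostly Pck1, a gluconeogenic enzyme that the tubule makes. The part of fat or liver RNA in the Agt values of single libraries was not tested.

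**Figure D2:**
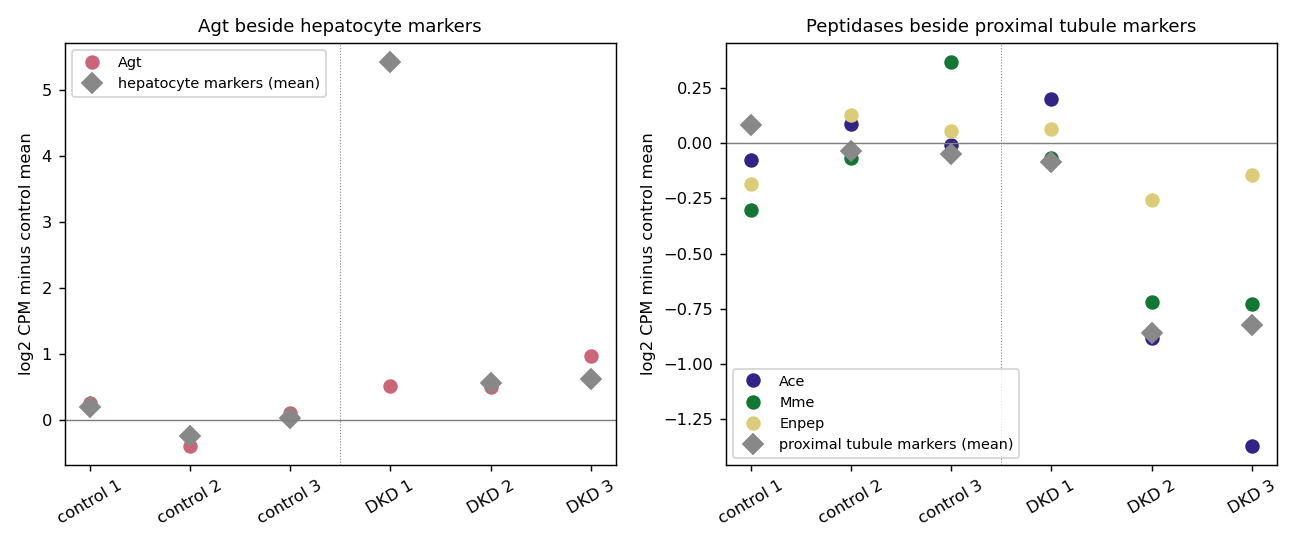
Level of Agt beside hepatocyte markers (left) and of Ace, Mme and Enpep beside proximal tubule markers (right) in each library, as log2 CPM minus the control mean; diamonds are means over the tested markers. Agt is raised by 0.53, 0.51 and 0.97 in DKD replicates 1 to 3, where the hepatocyte mean is at 5.43, 0.57 and 0.63. Ace and Mme are low in the libraries where the proximal tubule mean is low, and Enpep is nearer to its control level there.

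Ren1 encodes renin. It stood at 33.3, 56.2 and 45.5 CPM in the controls, and at 36.5, 14.8 and 41.5 CPM in the DKD libraries. DKD replicate 2 was below every other library, and the other DKD libraries lay within the range of the controls. The log2 difference was -0.54 ± 0.39 (SE; 95% interval -1.49 to 0.41) with an adjusted p of 0.485 in edgeR, a difference no larger than the spread between libraries. Without DKD replicate 2 it was -0.21 (adjusted p = 0.756 in edgeR), and without DKD replicate 1 it was -0.68 (adjusted p = 0.399 in edgeR). Some mouse strains carry a second renin gene, Ren2. It had no row matched here, and in such a strain its reads could be counted with Ren1.

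Markers of renin cells and of the vessel wall around them are given beside Ren1. Akr1b7, an aldo-keto reductase made with renin in juxtaglomerular cells, was at 1.36, 2.74 and 2.72 CPM in the controls and at 2.04, 1.62 and 1.89 CPM in DKD. Its groups overlapped, and DKD replicate 2 held the lowest of the DKD values, as it did for Ren1. Of the smooth muscle genes, Acta2 (31.9 CPM), Myh11 (26.0 CPM), Tagln, Cnn1, Des and Mcam were above all controls in DKD replicate 2, while Lmod1 (1.58 CPM), Myl9 (20.6 CPM) and Smtn (73.0 CPM) lay within the range of the controls. The list of 10 juxtaglomerular and smooth muscle markers summed to 139.5 to 171.0 CPM in the controls and 161.3 to 221.9 CPM in DKD, with 8 of 10 fitted higher and none at 0 in all libraries. Their part in the Ren1 values was not tested.

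Ace encodes angiotensin-converting enzyme, a membrane peptidase of endothelium and, in the kidney, above all of the proximal tubule brush border. Its CPM values were 252.3, 282.6 and 264.3 in the controls and 305.3, 144.5 and 103.3 in DKD replicates 1 to 3. DKD replicates 2 and 3 were below every control, and DKD replicate 1 was above every control. The coefficient of variation was 5.72% among controls and 57.9% among DKD libraries. Over all 6 libraries the log2 difference was -0.53 ± 0.38 (SE; 95% interval -1.43 to 0.37; adjusted p = 0.467 in edgeR). Without DKD replicate 1 Ace was lower in DKD by -1.11 ± 0.16 (log2, SE) with an adjusted p of 0.00644 in edgeR, a fit in which 15.5% of all tested genes were called, 9.67% as higher and 5.84% as lower. Without the other libraries, one at a time, the adjusted p ran from 0.554 to 0.790. An antisense gene, Gm11651, shares 5.58% of the exon bases of Ace. It held at most 4 counts in any library, against at least 8766 for Ace.

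Mme encodes neprilysin, a brush border peptidase that cuts angiotensin I and many other peptides. Its CPM values were 214.6, 251.9 and 341.0 in the controls and 252.1, 160.7 and 159.4 in DKD replicates 1 to 3. As with Ace, DKD replicates 2 and 3 were below every control, and DKD replicate 1 lay among the controls. The log2 difference was -0.50 ± 0.24 (SE; 95% interval -1.06 to 0.07; adjusted p = 0.305 in edgeR). Without DKD replicate 1 it was -0.76 ± 0.19 with an adjusted p of 0.0389 in edgeR. Both Ace and Mme were then below the controls without overlap, as were 22.9% of all genes tested on those 5 libraries. In fits on the same libraries added after the data were seen, DESeq2 (adjusted p = 0.00127) and weighted limma-voom (0.0104) also called Mme. Those fits called 23.3% and 24% of all genes, 10.1% and 9.39% as lower. On all 6 libraries DESeq2 did not call Mme (adjusted p = 0.175), and weighted limma-voom did (0.02955).

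Enpep encodes aminopeptidase A, which removes the first residue of angiotensin II and is also a brush border enzyme. Its CPM values were 134.7, 167.3 and 158.7 in the controls and 159.9, 127.9 and 138.4 in DKD. The groups overlapped. The log2 difference was -0.11 ± 0.13 (SE; 95% interval -0.41 to 0.19; adjusted p = 0.658 in edgeR), and -0.21 ± 0.12 without DKD replicate 1 (adjusted p = 0.274 in edgeR).

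Proximal tubule markers were lower in DKD replicates 2 and 3, as were Ace and Mme and, less so, Enpep. Of 20 such genes 18 had lower fitted levels in DKD and none was at 0, and the sum was 49940 to 58630 CPM in the controls, 49760 CPM in DKD replicate 1, and 29090 and 24490 CPM in DKD replicates 2 and 3. A large part of that sum was Kap, at 19385 to 26109 CPM in the controls and 22406, 11264 and 6920 CPM in DKD replicates 1 to 3. On the log2 scale the marker mean was -0.86 and -0.82 in DKD replicates 2 and 3. In those libraries Ace was at -0.88 and -1.37, Mme at -0.72 and -0.73, and Enpep at -0.26 and -0.14, each relative to its control mean. Enpep was thus nearer to its control level than the marker mean, and Ace in DKD replicate 3 was farther from its own. Single markers were spread widely around that mean in DKD replicates 2 and 3. Slc13a3 was at 664 and 663 CPM there against a control mean of 666 CPM. Slc22a7 was at 22.7 and 29.5 CPM against 156 CPM. No difference of a member from the markers was tested. The part of the proximal tubule RNA share in the levels of Ace and Mme was not tested either.

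Markers of other cells that can make these peptidases are given beside them. The summed level of 12 macrophage and myeloid genes was 277.2 to 516.6 CPM in the controls, 241.6 CPM in DKD replicate 1, and 787.3 and 920.5 CPM in DKD replicates 2 and 3. B and plasma cell genes, 8 in all, summed to 13.4 to 24.2 CPM in the controls and to 8.42, 300.1 and 110.2 CPM in DKD replicates 1 to 3. The part of immune cells in the levels of Ace and Mme was not tested. Neutrophil genes summed to at most 1.00 CPM in any library, and Elane was at 0 in all. Endothelial genes, 11 in all, summed to 407.3 to 469.7 CPM in the controls and 435.5 to 616.1 CPM in DKD. Podocyte genes, 10 in all with 9 fitted higher, summed to 291.6 to 369.2 CPM in the controls and 375.9 to 479.2 CPM in DKD. The part of endothelium or podocytes in the peptidase levels was not tested.

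**Figure D3:**
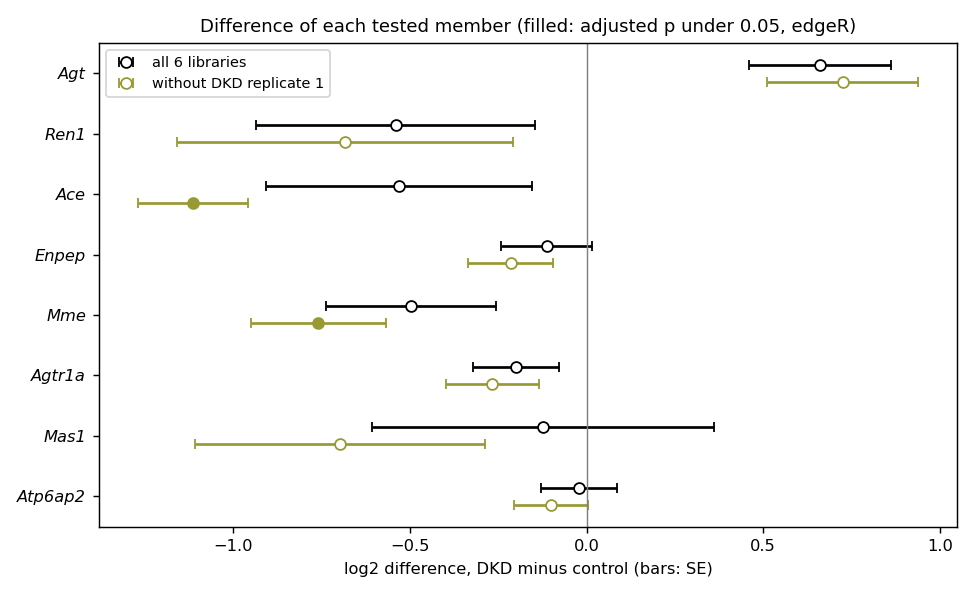
Log2 difference of the 8 tested members (horizontal axis, DKD minus control; bars are SE) over all 6 libraries (black) and without DKD replicate 1 (olive); filled points passed an adjusted p of 0.05. No member passed with all libraries, and Ace (-1.11) and Mme (-0.76) passed without DKD replicate 1.

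Agtr1a encodes the main AT1 receptor of rodents, through which angiotensin II acts on vessels, mesangium and tubule. Its CPM values were 33.2, 42.9 and 38.5 in the controls and 35.9, 30.1 and 33.8 in DKD. The groups overlapped, and the log2 difference was -0.20 ± 0.12 (SE; 95% interval -0.49 to 0.09; adjusted p = 0.404 in edgeR). Without DKD replicate 1 it was -0.27 ± 0.13 (adjusted p = 0.220 in edgeR). Mesangial and stromal markers, cells in which this receptor is prominent, summed to 127.8 to 173.0 CPM in the controls and 278.3 to 377.1 CPM in DKD, with all 13 fitted higher. Their fitted log2 differences were unequal, from 0.19 for Ptn to 2.25 for Postn. The collagen genes Col1a2, Col3a1 and Col1a1 were at 1.43, 1.83 and 1.87, and Itga8 and Pdgfrb at 0.35 and 0.40. The fitted difference of the receptor had the other sign, and its difference from the markers was not tested.

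Agtr1b encodes the second rodent AT1 receptor, known best from the adrenal cortex, and is a close paralog of Agtr1a, so how reads that fit both were assigned is uncertain. It had 0 counts in the controls and in DKD replicate 1, and 6 and 12 counts in DKD replicates 2 and 3. These are 0.258% (exact binomial 95% interval 0.0949% to 0.562%) and 0.416% (0.215% to 0.726%) of all AT1 receptor counts in those libraries. Where Agtr1b had no count its share could be up to 0.106% to 0.152%, for counting error only. The intervals and this limit take each count as an independent read. That was not checked, since how the named tools formed the counts is not given, and they may be too narrow. With the 2 rows added together the log2 difference was -0.20, the same to this precision as for Agtr1a alone. The 9 adrenal cortex markers summed to 5.91 to 10.6 CPM in the controls and 5.85 to 6.86 CPM in DKD, most of it from Star (3.38 to 4.32 CPM over all libraries), Akr1b7 and Hsd3b1 (up to 3.32 CPM in the controls). Cyp11b2, the aldosterone synthase, and Nr5a1 had no count in any library, and Cyp11b1 had 4 counts in DKD replicate 2 alone. Cyp11a1, which starts steroid synthesis, had 7 and 8 counts in DKD replicates 2 and 3 and none elsewhere, the same libraries that held the Agtr1b counts. Other genes of the list did not follow this. Mc2r had 7, 27 and 16 counts in the controls and 4, 0 and 4 in DKD. Cyp21a1 had 7 counts in control replicate 3 and 4 in DKD replicate 2. The part of adrenal RNA in the Agtr1b counts was not tested.

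Mas1 encodes the Mas receptor, the target of angiotensin-(1-7). It was the lowest of the tested members, at 0.875, 1.88 and 1.85 CPM in the controls and 2.32, 0.973 and 0.931 CPM in DKD, from 52 to 177 counts per library. DKD replicate 1 held the highest level and control replicate 1 the lowest. The log2 difference of -0.12 ± 0.48 (SE; 95% interval -1.26 to 1.02; adjusted p = 0.908 in edgeR) had an interval too wide to tell a doubling from a halving. Its sign turned (0.030 to 0.10) when any 1 of 4 libraries was left out, and without DKD replicate 1 the difference was -0.70.

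Atp6ap2 encodes the prorenin receptor, which is also an accessory subunit of the vacuolar proton pump and is made in most cells. It stood at 114.1, 132.5 and 132.1 CPM in the controls and 136.0, 116.4 and 120.5 CPM in DKD. The coefficient of variation was 8.33% in both groups. The log2 difference was -0.02 ± 0.11 (SE; 95% interval -0.28 to 0.23; adjusted p = 0.930 in edgeR), and -0.10 ± 0.11 without DKD replicate 1 (adjusted p = 0.571 in edgeR).

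Levels of the members were set side by side per kilobase of exon, with exon lengths from the GENCODE M21 annotation. In the controls the order by mean CPM per kb was Ace (50.4 ± 2.88), Atp6ap2 (48.2 ± 4.02), Enpep (32.6 ± 3.59), Agt (30.7 ± 6.86), Ren1 (27.1 ± 6.92), Mme (23.3 ± 5.63), Agtr1a (13.7 ± 1.74) and Mas1 (0.586 ± 0.218; SD, n = 3). The ranges of neighbours overlapped between Ace and Atp6ap2 and all along the run from Enpep to Mme, so the order within those stretches is not larger than the spread. Atp6ap2 and Enpep, Mme and Agtr1a, and Agtr1a and Mas1 did not overlap. In DKD the level of Agt was 48.4 ± 9.18 CPM per kb, beside Atp6ap2 at 47.5 ± 3.96, and Ace was at 34.9 ± 20.2. Lengths come from another build than the counts and take in every annotated exon, 11.5 kb for Mme, so a gene with long exons that are rarely used is set low.

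**Figure D4:**
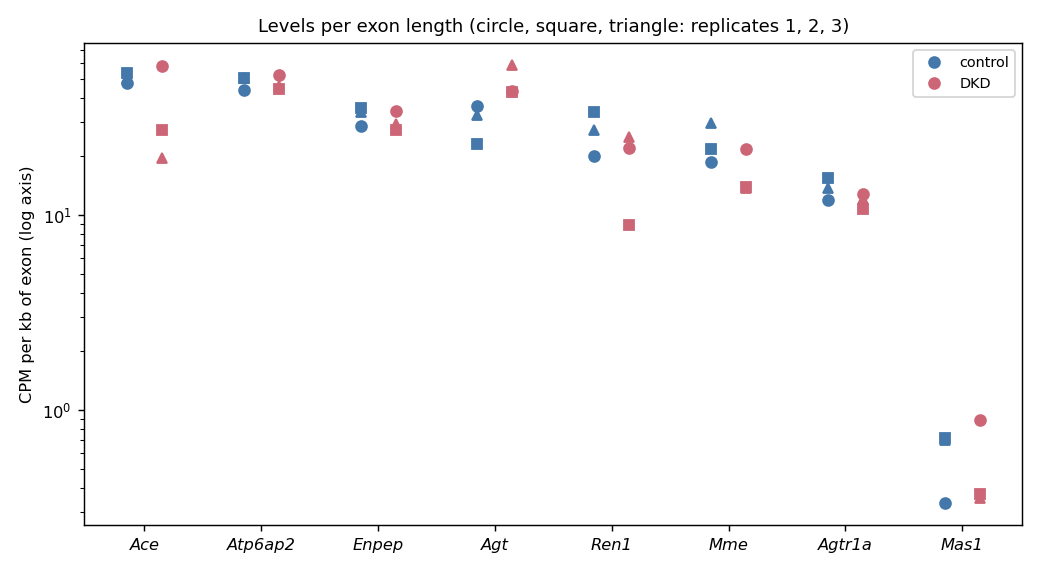
CPM per kb of exon (vertical log axis) of the 8 tested members in each library, in the order of the control means. Agt is at 42.9 to 59.0 in the DKD libraries, above all controls, and Ace spans 19.5 to 57.8 in DKD.

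The genes whose pattern over the 6 libraries was most like that of a member were taken by Pearson correlation of log2 CPM among 14668 genes with a mean of at least 1 CPM. With 6 libraries many genes come close, so these are descriptions, and the points share depth and scaling. For Agt the nearest were Gm49395 (r = 0.994), Shmt1 (0.992) and Hoxd4 (0.991), and 60 genes reached 0.95. For Ace they were Rps2-ps6 (0.997), Tef (0.996) and Pura (0.995), and 274 genes reached 0.95, the most of any member. For Mme they were Dhx16 (0.996), Vps54 (0.992) and Hsd17b14 (0.984), and for Enpep Zfp354a (0.993), Myo7b (0.988), a brush border myosin, and Dock9 (0.984). For Ren1 they were Pls1 (0.985), Csrnp3 (0.985) and Abce1 (0.981), and 18 genes reached 0.95, the fewest of any member. Agtr1a was nearest to Arhgef28 (0.990), Arhgef11 (0.988) and Gm42031 (0.978). Atp6ap2 was nearest to Gramd1b (0.992), Setd2 (0.990) and Ppargc1a (0.984), and Mas1 to Bmp4 (0.987), Lrp6 (0.984) and Mllt10 (0.983).

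Other genes of angiotensin processing mostly had small fitted differences over all 6 libraries. Of 22 listed genes 21 had a row and 16 could be tested. Fitted levels were higher in DKD for 8 and lower for 8, and 15 log2 differences were smaller than 0.5 in size. In edgeR 0 passed the threshold. At an unadjusted p under 0.05 there were 1 higher and 1 lower, beside 12.2% and 7.05% of all tested genes. Lrp2 (megalin), the endocytic receptor that takes filtered angiotensinogen into the proximal tubule, was at 2204 ± 284 CPM in the controls and 1368 ± 312 CPM in DKD (log2 difference -0.69 ± 0.19; adjusted p = 0.147 in edgeR) and is also a proximal tubule marker here. Arap1 differed by 0.37 ± 0.12, Klk1 (tissue kallikrein, which forms kinins) by 0.37 ± 0.24 and Atp6ap1, another proton pump accessory subunit, by -0.12 ± 0.09 (log2, SE). Without DKD replicate 1, edgeR called 2 of 16, Lrp2 lower and Arap1 higher, no larger a share than the 15.5% of all genes called in that fit. DESeq2 and weighted limma-voom without it, run after the data were seen, called 3 and 4 of 16, where they called 23.3% and 24% of all genes. Both called Anpep, whose fitted log2 difference over all 6 libraries was 0.01. It was at 155.7 to 186.4 CPM in the controls and 255.0, 136.6 and 125.5 CPM in DKD replicates 1 to 3. The AT2 receptor gene Agtr2, the chymase gene Cma1 and the mast cell protease gene Cpa3 were among the 5 genes with a row that were too low to test, and Ctsg and Mrgprd had no count.

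Genes that act on renin cells, such as the cAMP pathway that drives renin release, gap junctions and renin gene regulators, had higher fitted levels in DKD more often than lower ones. All 35 could be tested. Fitted levels were higher in DKD for 26 and lower for 9, with a median of 0.22 on the log2 scale against 0.02 over all tested genes. None passed the threshold in edgeR, and 7 of 35 were higher and 0 lower at an unadjusted p under 0.05, beside 12.2% and 7.05% of all tested genes. The smallest p-values were those of Rgs5, a brake on G protein signalling in pericytes (0.71 ± 0.15; adjusted p = 0.111 in edgeR), Hoxd10, a homeobox regulator (0.61 ± 0.14), Pde1c, a phosphodiesterase that degrades cyclic nucleotides (1.35 ± 0.36), and Adcy6, an adenylyl cyclase that makes cAMP (0.36 ± 0.11). For 9 of the 35, these 4 among them, every DKD library was above every control, where 13.8% of all tested genes were. Whole kidneys do not show which cells held the RNA of these genes. Adcy6 was at 108 CPM in the controls, where Akr1b7 of renin cells was at 2.28 CPM. Several genes of the list are also made in mesangial, stromal and smooth muscle cells. Mesangial and stromal markers had a higher sum in every DKD library than in every control. Juxtaglomerular and smooth muscle markers did so in DKD replicates 2 and 3 alone, with 161.3 CPM in DKD replicate 1 against up to 171 CPM in the controls. The part of these cells was not tested. With DKD replicate 1 left out, 4 genes of the list passed in edgeR, all higher (Hoxd10, Pde1c, Pde3b and Rgs5), where 9.67% of all genes were called higher and 5.84% lower, so 4 of 35 is near the background.

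Genes that carry the signal of the AT1 receptor had a median of 0.05. Of 37 genes, all of which could be tested, fitted levels were higher in DKD for 24 and lower for 13. None passed the threshold in edgeR, and 5 of 37 were higher and 3 lower at an unadjusted p under 0.05, near the 12.2% and 7.05% of all tested genes. Plcb4, a phospholipase C that Gq activates, was at 8.26 ± 1.67 CPM in the controls and 13.7 ± 0.198 CPM in DKD (0.73 ± 0.17; adjusted p = 0.120 in edgeR). Rgs3, another brake on G protein signalling, differed by 0.73 ± 0.19. Ptk2b, a calcium-activated tyrosine kinase, differed by -0.31 ± 0.09, and Egfr, the growth factor receptor that AT1 receptors transactivate, by -0.33 ± 0.11 (log2, SE). These 4 were named for their small p-values, and none had overlapping groups. Over the list, 4 of 37 genes were higher and 3 lower without overlap, no larger a share than the 13.8% and 11.5% of all tested genes. Without DKD replicate 1, edgeR called 4 of 37, Arrb2, Itpr2, Plcb4 and Rgs2, all higher, near the 9.67% of all genes called higher in that fit.

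**Figure D5:**
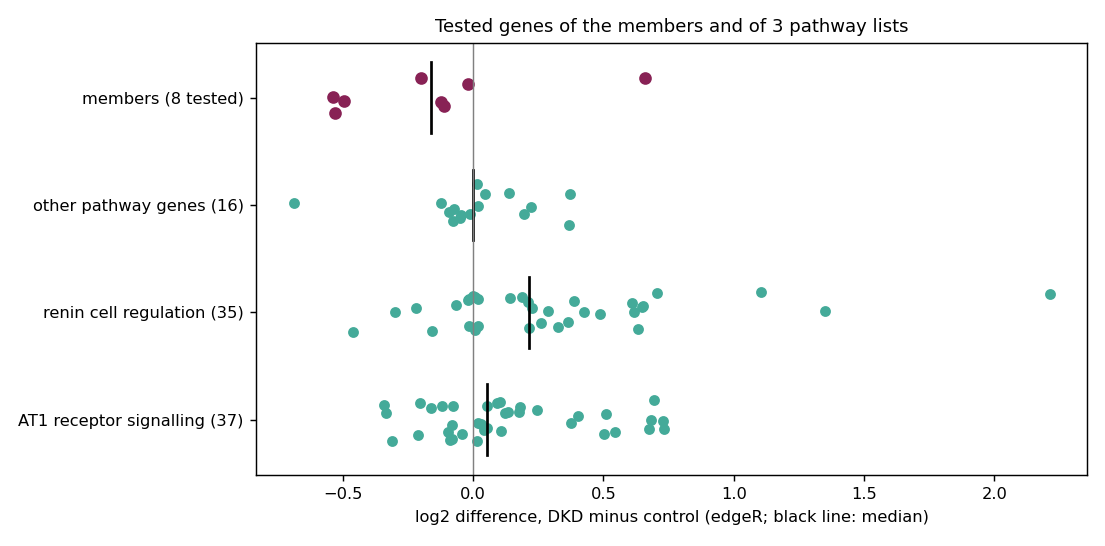
Log2 difference (horizontal axis, DKD minus control, edgeR) of each tested member and of each tested gene of 3 pathway lists; points are spread vertically for view and black lines are medians. The medians are -0.16, -0.00016, 0.22 and 0.05 from top to bottom, and Agt at 0.66 is the 1 member above 0.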

How the data were processed

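The authors deposited raw read counts per Ensembl gene ID, with no normalization, as 1 table of 6 columns. The tools named per the submitters' processing notes are HISAT2, fastp, StringTie and edgeR, on GRCm39. The sources used here give neither their versions and roles nor the annotation and strand setting. Per the labels' protocols the libraries were made stranded with dUTP. Symbols came from a table of gene IDs and names, which matched 55141 IDs, and exon lengths from GENCODE M21 (GRCm38).

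Counts were analysed in R 4.3.3 with edgeR 4.0.16 (two-sided quasi-likelihood test with robust fit), TMM factors, the default low count filter and Benjamini-Hochberg adjustment over 19197 genes, with a threshold of 0.05. Log2 levels of single libraries use a prior count of 2. DESeq2 1.42.0 and limma 3.58.1 served as alternatives beside other scalings and filters, a replicate block and leaving out each library. Promoter windows are from RefSeq (GRCm38.p6). A gene with 0 counts could be present at up to 3 counts, 0.0353 to 0.0505 CPM, for counting error only and if each count is an independent read. No 2 libraries of a group agreed within sampling noise (chi-square per degree of freedom of at least 32.0).

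The members and lists were chosen with earlier results of these data known. Named are the 9 members, the 4 tested genes with the smallest p-values of each pathway list together with any past the threshold, the 3 genes nearest in pattern to each member with a mean of at least 1 CPM, and markers whose level stands beside a member. Genes called in other fits, and those too low to test, were named after their values were seen.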

Additional observations from a re-analysis of the deposited data

How the results depend on the processing

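Agt was higher, and Ren1, Ace, Mme and Agtr1a lower, in DKD under all 18 alternatives, with log2 differences of 0.49 to 0.84 for Agt, -1.08 to -0.21 for Ren1, -1.16 to -0.24 for Ace, -0.80 to -0.29 for Mme and -0.32 to -0.05 for Agtr1a. The sign of Enpep turned with library size alone (0.031), a scaling that moved the median of all genes from 0.02 to 0.17. That of Atp6ap2 turned with library size alone (0.12) and without control replicate 2 (0.013), control replicate 3 (0.0098), DKD replicate 2 (0.024) and DKD replicate 3 (5.11e-07), and with single libraries left out it ran from -0.10 to 0.024. That of Mas1 turned without the same 4 libraries (0.046, 0.030, 0.083 and 0.10), in a range from -0.70.

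Genes called, and then members, other pathway genes, renin cell genes and AT1 signalling genes called among them, numbered 1749, 1, 1, 3 and 3 with DESeq2 and 3397, 3, 2, 6 and 7 with weighted limma-voom. Without a filter 4 genes were called in all. When single libraries were left out, edgeR called 0 to 3101 genes, 0 to 2 members, 0 to 2 other pathway genes, 0 to 4 renin cell genes and 0 to 4 AT1 signalling genes. The upper values all came without DKD replicate 1, and 7 genes were called without control replicate 1 and 1 without DKD replicate 3. Chosen after seeing the data, DESeq2 without DKD replicate 1 gave 4658, 3, 3, 6 and 10, and weighted limma-voom without it 4807, 3, 4, 7 and 10. The causes were not tested.

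The replicate numbers are not stated to pair the libraries, and same-numbered libraries deviated together only weakly (r = 0.034, 0.023 and 0.034), although each was nearest to its own number. With the replicate block 0 genes and 0 members were called, and Agt was at 0.67 and Ace at -0.69. Depth limits what can be said of Agtr1b, which had at most 12 counts in a library. The sum of Ren1 and Ren2 was not run, since no Ren2 row was matched.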
